A study of Mus musculus with 9 samples.

Results

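The genes described here are the amino acid transporters of the mouse epididymis that carry the family names Slc1a, Slc3a, Slc6a, Slc7a, Slc36a, Slc38a and Slc43a. They were chosen by symbol, as every gene of the count table whose name starts with one of these prefixes followed by digits, which gave 64 of 32195 genes. The rule used no measured value. A pair of these symbols, Slc7a6os and Slc36a3os, belong to loci named for lying opposite a transporter gene, not to transporters, and both are kept in the counts because the rule includes them.

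Single-cell RNA-seq was measured in C57BL/6 male mice without treatment. Single cells were caught in chip wells and their transcripts tagged with molecular identifiers (UMIs), by which copies made in PCR collapse to 1 count. The caput, corpus and cauda, the segments that sperm pass in this order, were collected from 42-day-old mice (P42) and from 56-day-old mice (P56). The P42 group was a pool of 5 mice and gave 1 library per segment, and the P56 group was 2 pools of 5 mice each, called replicate 1 and replicate 2, and gave 2 libraries per segment, so that there were 9 libraries in all. The 3 segments of a pool came from the same mice, and with a single P42 pool, age cannot be told apart from the pool.

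Amino acid transporters move amino acids and related small molecules such as taurine and creatine across cell membranes. The Slc7 light chains reach the cell surface bound to a heavy chain, either Slc3a2, which pairs with Slc7a5, Slc7a6, Slc7a7, Slc7a8, Slc7a10 and Slc7a11, or Slc3a1, which pairs with Slc7a9, while the cationic Slc7 carriers such as Slc7a1 work alone. Slc38 carriers take up glutamine and other small neutral amino acids with sodium, Slc1 members carry glutamate or neutral amino acids, Slc6 members carry neurotransmitters, osmolytes and neutral amino acids, Slc36 carriers use a proton gradient, and Slc43 members carry large neutral amino acids or, in the case of Slc43a3, nucleobases. The principal cells of the epididymal epithelium secrete and absorb the fluid that surrounds sperm, and its content of glutamate, taurine and other amino acids changes along the duct.

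After limits on cells, 40726 of 44869 barcodes were kept, between 3946 and 4850 per library, and 114 of the 40569 distinct barcodes occurred in more than 1 library. The kept cells held 18450232 UMIs in the shallowest library (P42 corpus) and 40681122 in the deepest (P56 replicate 2 cauda). Levels are given as UMIs per 1000000 UMIs of the library or of the gated cells (CPM), not divided by gene length. Log2 differences come from fits with TMM scaling between libraries, which CPM does not carry, so the 2 can differ in size. The P42 cauda library stood apart, with 1908 of its 4434 cells passing no marker gate, the lowest median UMI count per cell (3061) and a summed level of 6 fibroblast markers of 42243 CPM, against 1493 and 959 CPM in the P56 cauda libraries. Values without its pool are given below beside several of the segment and cell type results.

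Every one of the 64 genes had at least 1 UMI in the kept cells, and together they held 298386 UMIs. There were 24 genes with fewer than 100 UMIs, 20 with at least 100 but fewer than 1000 and 20 with at least 1000. The 64 genes summed to 1950 ± 412 CPM in the caput (SD, n = 3), 646 ± 115 CPM in the corpus and 821 ± 191 CPM in the cauda. Slc38a5, a sodium-coupled glutamine carrier, made up 60.1%, 63.1% and 53.4% of these UMIs in the caput libraries of P42, P56 replicate 1 and P56 replicate 2, and 0.236% to 2.48% in the 6 libraries of the other segments. Without Slc38a5 the sums were 795 ± 140 CPM in the caput, 638 ± 109 CPM in the corpus and 811 ± 179 CPM in the cauda. The ranges of the 3 segments then overlapped.

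To compare the segments, the UMIs of all kept cells were summed per library and tested by edgeR's quasi-likelihood test, blocked by pool. A called gene had an adjusted p (Benjamini-Hochberg, over all genes tested) under 0.05 and a log2 difference of at least 1 between its highest and lowest segment. The test took the 3 segments at once. Its adjusted p is the one printed beside differences between 2 segments, here and within gates. Of the 46 transporter genes with enough UMIs for the test, 22 (47.8%) were called, against 24.8% of the 19445 genes tested. The highest segment was the caput for 11 of them (11.5% of all genes), the corpus for 3 (7.27%) and the cauda for 8 (6.07%). The median difference between the highest and lowest segment was 1.68 on the log2 scale for the 46 genes and 0.84 for all genes. The 18 genes not tested had at most 56 UMIs each. In sums over whole tissue, fewer cells of a type and less RNA per cell cannot be told apart.

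Slc38a5, on chromosome X (GRCm38 chrX:8271133-8280179, plus strand), had its highest levels in the caput. Its level in the caput was 1438, 1185 and 844 CPM at P42, P56 replicate 1 and P56 replicate 2, in the corpus 14.2, 9.29 and 1.5 CPM, and in the cauda 25.5, 2.18 and 1.84 CPM. The lowest caput library was far above the highest of the other 6 libraries, and the corpus and cauda values overlapped. The log2 difference was -7.45 ± 0.80 (SE) from caput to corpus and -7.58 ± 0.81 from caput to cauda (adjusted p = 0.000625, edgeR quasi-likelihood test). The annotated promoter of Slc38a5 (RefSeq, GRCm38.p6, chrX:8271131-8271430, plus strand, 250 bases before to 50 bases after the RefSeq start, which lies inside the GENCODE gene and downstream of its first base) is shown because this gene held most of the transporter UMIs of the caput, and the capitals mark the only CACGTG.
Slc38a5: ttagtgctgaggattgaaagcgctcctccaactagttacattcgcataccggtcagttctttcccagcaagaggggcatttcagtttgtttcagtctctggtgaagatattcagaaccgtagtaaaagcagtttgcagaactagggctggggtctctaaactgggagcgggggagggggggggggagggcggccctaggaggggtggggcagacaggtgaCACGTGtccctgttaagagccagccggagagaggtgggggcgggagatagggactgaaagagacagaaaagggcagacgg

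CACGTG, which reads the same on both strands, occurred in 7.15% of the 32851 promoter windows of this length. Neither the androgen response half-site TGTTCT (19.0% of windows, searched on both strands) nor the amino acid response element TGATGNAA (3.97%, both strands) occurred in this window, which says nothing about the binding of a factor elsewhere. These motifs were chosen after the sequences were read.

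The heavy chain Slc3a2 and its large neutral light chain Slc7a5 were both highest in the caput. Slc7a5 was at 62.1, 83.8 and 77.4 CPM in the caput libraries, at 2.65 to 4.55 CPM in the corpus and at 2.55 to 7.28 CPM in the cauda, so no library of another segment reached a caput value (-4.33 ± 0.32 from caput to corpus, -3.98 ± 0.32 from caput to cauda, adjusted p = 0.000192). Slc3a2 was at 319, 258 and 253 CPM in the caput, 110, 86.1 and 89.1 CPM in the corpus and 111, 114 and 122 CPM in the cauda. The difference for the heavy chain was smaller, at -1.39 ± 0.20 from caput to corpus and -1.01 ± 0.20 from caput to cauda (adjusted p = 0.00548). Among the other partners of Slc3a2, Slc7a8, a second large neutral light chain, was at 22.4, 13.0 and 15.9 CPM in the caput against 9.11, 1.99 and 1.92 CPM in the corpus (-2.22 ± 0.32, adjusted p = 0.00661). In the cauda it was at 19.8, 4.36 and 3.69 CPM, and the P42 cauda value was above both P56 caput values. The cystine/glutamate exchanger Slc7a11 did not pass (adjusted p = 0.0683).

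The arginine and lysine carrier Slc7a1 was at 34.3, 24.4 and 24.7 CPM in the caput and at 8.63 to 18.0 CPM in the corpus and cauda (-1.07 ± 0.20 from caput to corpus, adjusted p = 0.00989). Slc38a1, a glutamine carrier of the same family as Slc38a5, was at 12.5, 4.51 and 8.18 CPM in the caput and at 8.67, 1.55 and 1.96 CPM in the corpus (-1.22 ± 0.27, adjusted p = 0.0283). In the cauda it was at 10.4, 2.10 and 2.43 CPM, and here too the P42 value was above both P56 caput values. The P42 library was the highest of each segment for Slc7a1 and Slc38a1, and the caput and corpus values of Slc38a1 overlapped between pools though not within them. The other 5 genes called and highest in the caput had segment means of at most 4.81 CPM, and they were Slc7a9, the light chain of Slc3a1, and the Slc6 members Slc6a13, Slc6a15, Slc6a2 and Slc6a21. Slc6a21 had 6, 15 and 52 UMIs in the caput libraries and none in the cauda, which makes it at least 24.7-fold lower in the cauda against a limit of 3 counts over the segment. Leaving out the P56 replicate 2 caput library lowered this bound to 11.2. These 5 genes, and the 4 low genes named next, are named because they were counted, after their values were seen.

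Slc7a4, Slc7a12 and Slc7a15 were called with their lowest level in the caput. Slc7a4, placed with the cationic carriers by its sequence (GRCm38 chr16:17572018-17583214, minus strand, overlapping P2rx6 on the other strand), was at 37.7, 28.9 and 30.4 CPM in the caput, 140, 158 and 169 CPM in the corpus and 65.2, 125 and 152 CPM in the cauda. Every corpus and cauda library was above every caput library (2.37 ± 0.36 from caput to corpus, 1.99 ± 0.36 from caput to cauda, adjusted p = 0.0078). Slc7a12, a light-chain member, had 0, 0 and 1 UMIs in the caput libraries, 36, 82 and 106 in the corpus and 154, 880 and 1446 in the cauda. Its CPM in the cauda was 2444 times that in the caput, with an exact 95% interval of 438 to 96564 for counting error only, and its log2 difference between cauda and corpus was 2.83 ± 0.28 (adjusted p = 7.8e-05 over the 3 segments).

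Slc7a15, a further light-chain member (GRCm38 chr12:8528483-8599066, minus strand, overlapping 5033421B08Rik on the other strand), was at 0.78, 0.16 and 0.50 CPM in the caput, 2.76, 2.26 and 12.0 CPM in the corpus and 32.5, 108 and 153 CPM in the cauda. The 3 segments did not overlap, with 7.81 ± 0.92 from caput to cauda and 4.38 ± 0.75 from corpus to cauda (adjusted p = 0.0017). Its upstream promoter (RefSeq, GRCm38.p6, chr12:8599017-8599316, minus strand) is shown as that of a light-chain member with a separate range in each segment, which Slc7a12 had too, and the capitals mark a run that reads TATAA on both strands.
Slc7a15: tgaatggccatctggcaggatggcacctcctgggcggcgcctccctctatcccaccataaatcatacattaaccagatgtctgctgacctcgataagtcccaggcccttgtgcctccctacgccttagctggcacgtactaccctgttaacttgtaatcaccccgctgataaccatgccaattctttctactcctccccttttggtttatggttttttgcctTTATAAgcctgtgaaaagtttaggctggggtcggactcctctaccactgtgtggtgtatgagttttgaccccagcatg

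TATAA occurred on either strand in 24.9% of the promoter windows, and the second annotated promoter of Slc7a15 (chr12:8539517-8539816) held none. Of the motifs searched, neither TGTTCT, TGATGNAA nor CACGTG occurred in either window of this gene.

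Slc38a4, a carrier of neutral and cationic amino acids, was at 6.42, 3.20 and 4.98 CPM in the caput, 26.5, 26.7 and 31.1 CPM in the corpus and 21.4, 35.3 and 46.7 CPM in the cauda (2.67 ± 0.39 from caput to corpus, 3.05 ± 0.40 from caput to cauda, adjusted p = 0.0042). The taurine carrier Slc6a6 was at 59.3, 14.5 and 26.7 CPM in the caput, 72.3, 38 and 41.7 CPM in the corpus and 133, 50.8 and 71.4 CPM in the cauda. The segments overlapped between pools, but in each pool the order was caput, corpus, cauda (1.68 ± 0.24 from caput to cauda, adjusted p = 0.00609). Slc38a2, a glutamine and alanine carrier known to rise when amino acids are scarce, was at 67.9, 34.7 and 34.9 CPM in the caput, 84.2, 83.8 and 72.7 CPM in the corpus and 149, 72.0 and 57.2 CPM in the cauda (1.20 ± 0.25 from caput to cauda, adjusted p = 0.0218). This difference was 1.29 without the P42 pool (adjusted p = 2.26e-05). Slc38a2 was not called without P56 replicate 1 (1.15, adjusted p = 0.258) or P56 replicate 2 (1.20, 0.154). The creatine carrier Slc6a8 was called, lowest in the corpus and highest in the cauda (1.69 ± 0.33 between them, adjusted p = 0.0219). Its difference without the P42 pool was 1.65 (adjusted p = 0.00468). Slc6a8 was not called without P56 replicate 1 (1.84, adjusted p = 0.187) or P56 replicate 2 (1.67, 0.0993). The 4 called genes of low level were Slc6a18 and Slc6a19, carriers of neutral amino acids highest in the corpus, and Slc6a20a, an imino acid carrier, and the glutamate carrier Slc1a3, both highest in the cauda.

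The glutamate carrier Slc1a1 and the neutral amino acid exchanger Slc1a5 did not pass over the 3 pools. Slc1a1 was at 54.3, 61.4 and 45.1 CPM in the caput, 7.75, 15.1 and 25.6 CPM in the corpus and 17.3, 35.0 and 50.9 CPM in the cauda (-1.82 ± 0.45 from caput to corpus, adjusted p = 0.0502, and 0.00838 without the P42 pool). Slc1a5 was at 126, 83.2 and 109 CPM in the caput, 117, 73.9 and 42.2 CPM in the corpus and 109, 12.0 and 8.46 CPM in the cauda, where the P42 library alone was near the caput level (-1.90 ± 0.60 from caput to cauda, adjusted p = 0.102). Without the P42 pool its difference between caput and cauda was 2.86 on the log2 scale and passed (adjusted p = 6e-06). Slc43a3 was at 108 CPM in the P42 cauda and at 4.42 to 40.1 CPM in the other 8 libraries (adjusted p = 0.523). No Slc36 or Slc43 gene was called among the 4 and 3 tested. Leaving out a pool gave 28 called genes without P42 (40.1% of all genes), 4 without P56 replicate 1 (3.64%) and 6 without P56 replicate 2 (7.07%). Of the genes described by level, Slc38a5, Slc7a5, Slc7a12 and Slc7a15 were called in all 3 cases.

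**Figure D1:**
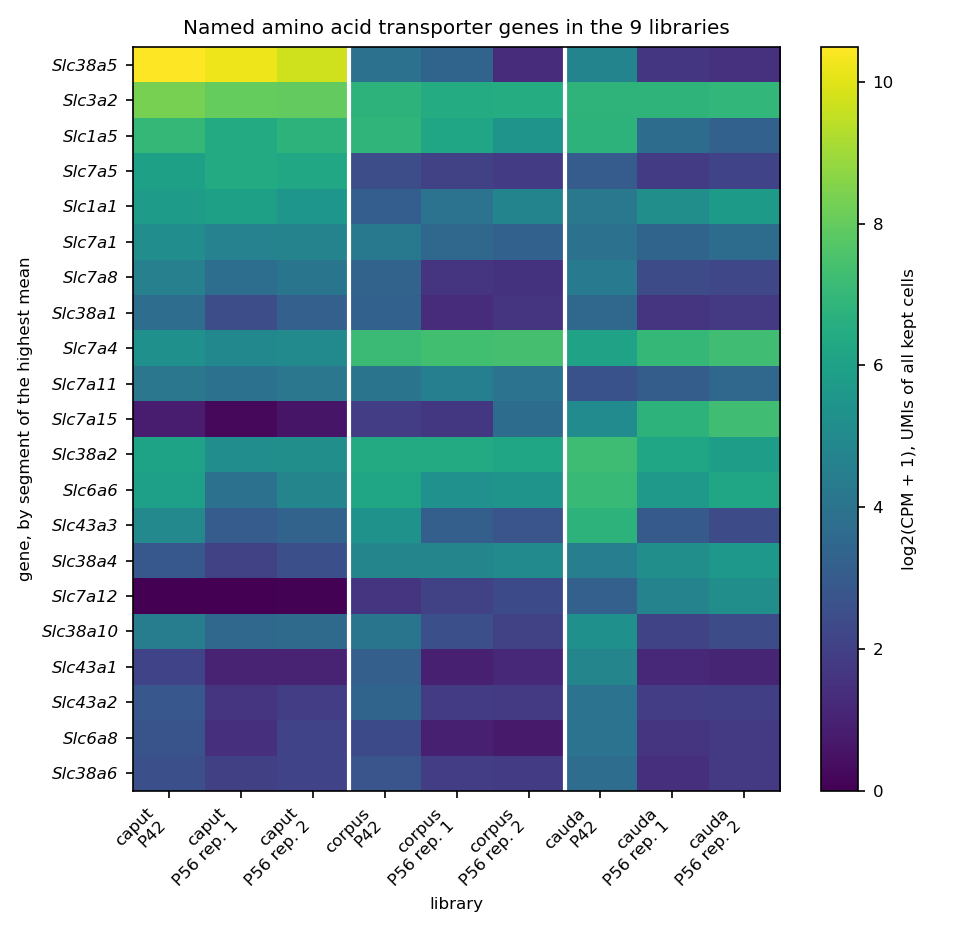
Level of the 21 transporter genes named by level or by calls (vertical axis, ordered by the segment of the highest mean) in the 9 libraries (horizontal axis), as colour on a log2(CPM + 1) scale. Slc38a5 is brighter in the 3 caput libraries (844 to 1438 CPM) than elsewhere (at most 25.5 CPM). Slc7a15 (32.5 to 153 CPM) and Slc7a12 (8.30 to 35.5 CPM) are brighter in the cauda than in the other segments.

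To ask whether the segments also differed within a cell type, cells were gated by marker genes, none of them a transporter, and the test was repeated on the UMIs of each gate. The gate for principal cells held 14028 cells, of which 5673 were within 25% of its lower limit, so it is a range on a score, and 8 of its 27 markers were highest in it among the gates. Its limit on these markers was set per library, from 7262 CPM in the P42 cauda to 181316 CPM in the P56 replicate 1 caput. Cells of different segments thus entered at different marker levels into this gate. Of 35 transporter genes tested there, 23 (65.7%) were called, against 36.2% of all genes. The caput was highest for 12 (14.6% of all genes), the corpus for 5 (10.9%) and the cauda for 6 (10.8%), and the median log2 range was 2.24 for the transporters and 0.93 for all genes.

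In principal-gated cells Slc38a5 was at 1696, 886 and 760 CPM in the caput, 5.51, 11.8 and 0.193 CPM in the corpus and 21.0, 0.903 and 1.2 CPM in the cauda. Slc7a5 was at 94.7 ± 4.20 CPM in the caput (SD, n = 3), 2.30 ± 0.76 CPM in the corpus and 3.82 ± 3.15 CPM in the cauda (-5.43 ± 0.37 to the corpus, -4.87 ± 0.36 to the cauda, adjusted p = 1.83e-05). The caput values of both genes lay above every corpus and cauda value. Slc6a6 was at 12.6, 4.5 and 8.53 CPM in the caput, 50.5, 29.5 and 39.9 CPM in the corpus and 110, 51.7 and 71.8 CPM in the cauda. Here the 3 segments no longer overlapped, and the difference between caput and cauda was 3.30 ± 0.18 (adjusted p = 2.12e-05), against 1.68 in whole tissue.

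Slc38a4 was at 1.99 ± 0.87 CPM in caput principal-gated cells, 36.9 ± 5.11 CPM in the corpus and 47.0 ± 7.42 CPM in the cauda (adjusted p = 3.8e-05). Slc7a15 was at 0.40, 0 and 0.32 CPM in the caput, 4.17, 1.32 and 12.3 CPM in the corpus and 94.5, 141 and 193 CPM in the cauda. Slc7a12 had no UMI in the caput gate, 114 in the corpus and 1354 in the cauda, which is at least 51.2-fold and at least 435-fold higher against 3 counts over the segment. Slc7a4 was at 35.8 ± 10.7 CPM in the caput, 207 ± 21.8 CPM in the corpus and 173 ± 11.8 CPM in the cauda. Slc1a1 and Slc1a5, which missed the threshold in whole tissue, passed it here over the 3 pools, Slc1a1 at 78.8 ± 11.0, 20.1 ± 9.39 and 50.6 ± 10.8 CPM (-2.06 ± 0.33 to the corpus, adjusted p = 0.00385) and Slc1a5 with a difference of -2.76 ± 0.55 between caput and cauda (adjusted p = 0.00883). The cauda value of Slc1a5 was 58.2 CPM at P42 and 4.93 and 4.62 CPM at P56. Its difference was 3.75 without the P42 pool (adjusted p = 1.46e-06), but it was no longer called without P56 replicate 1 (2.46, adjusted p = 0.0982) or P56 replicate 2 (2.13, 0.0778). The call of Slc1a1 was lost without P56 replicate 1 (1.97, adjusted p = 0.0836). In the fit without the P42 pool 24 of 31 transporters were called in principal-gated cells (44.3% of all genes). Of these, 22 were shared with the fit of all pools. The differences were 9.44 for Slc38a5 between caput and cauda, 5.67 for Slc7a5 between caput and corpus and 3.46 for Slc6a6 between caput and cauda.

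In the other gates the transporters called were 11 of 24 tested in basal cells (15.9% of all genes), 12 of 23 in clear/narrow cells (12.8%), 8 of 23 in macrophages/monocytes (10.9%), 8 of 9 in halo/T cells (17.2%), 10 of 22 in fibroblasts (13.1%), 6 of 9 in myoid cells (12.2%), 6 of 14 in endothelial cells (9.53%) and 8 of 11 in sperm (30.6%). In the small gates a gene could enter the test through the 1 segment where it was high, so being tested partly set being called. Halo/T cells had 878, 2 and 10 UMIs of Slc38a5 from caput to cauda, 87, 1 and 4 of Slc7a5 and 0, 6 and 88 of Slc7a15. The smallest libraries held 14 halo/T, 11 myoid, 12 endothelial and 10 sperm-gated cells. The 6 myoid markers summed in the caput to 2053, 2321 and 2396 CPM in principal-gated cells. In all kept caput cells they summed to 1603, 1790 and 1631 CPM. This list was thus not low in principal-gated cells of the caput, and how far the caput myoid gate holds principal cells was not tested. Slc38a5 and Slc7a5 were called and highest in the caput, and Slc7a15 called and highest in the cauda, in all 9 gates. Basal-gated cells, which sit at the base of the epithelium, had Slc38a5 at 1967, 1824 and 1291 CPM in the caput and at 4.01 to 34.4 CPM elsewhere. Slc7a5 was at 44.0 ± 16.2 CPM in caput basal-gated cells, with a log2 difference of -2.67 ± 0.35 to the corpus (adjusted p = 1.28e-05). Slc6a6 did not pass in clear/narrow cells (adjusted p = 0.374), where it was at 88.8 ± 32.1, 69.9 ± 42.9 and 86.0 ± 38.2 CPM from caput to cauda.

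Free RNA in the suspension is shared by all cells of a library, and levels in the gates are given beside a marker of principal cells. In the caput the mean level of Slc38a5 was 1694 CPM in basal, 1186 in halo/T, 1114 in principal, 1073 in macrophage/monocyte, 903 in sperm, 835 in fibroblast, 793 in endothelial, 513 in clear/narrow and 491 CPM in myoid-gated cells. Lcn8, a lipocalin secreted by principal cells and one of the markers of their gate, was in the same libraries at 31.3% of its principal level in basal cells, 31.8% in clear/narrow, 51.9% in endothelial, 52.1% in sperm, 59.8% in fibroblast, 65.1% in macrophage/monocyte, 73.3% in halo/T and 92.7% in myoid-gated cells. Other principal-cell markers had different shares, and the 3 given here, of 27, were named outside any fixed rule. Cst12, a cystatin, was at 30.2% of its principal level in basal cells and 29.3% in clear/narrow cells, while Lcn5, a further lipocalin, was at 129% in basal, 130.1% in clear/narrow, 245% in halo/T and 65.3% in myoid-gated cells. The level of Slc38a5 in basal cells was 152% of that in principal cells, and in halo/T cells it was 106%. Over all segments its difference between basal cells and the other types was under the threshold of 1 (0.89 ± 0.21), so it was not called. Slc7a5 was in the caput at 40.5% of its principal level in clear/narrow, 46.4% in basal, 60.5% in myoid, 65.3% in sperm, 69.8% in fibroblast, 72.7% in macrophage/monocyte, 83.4% in endothelial and 90.8% in halo/T-gated cells. In the cauda Slc7a15 was at 24.9% of its principal level in clear/narrow, 33.9% in basal and 52.6% to 71.9% in the other 6 gates. The part of free RNA in the segment differences within the gates was not tested.

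**Figure D2:**
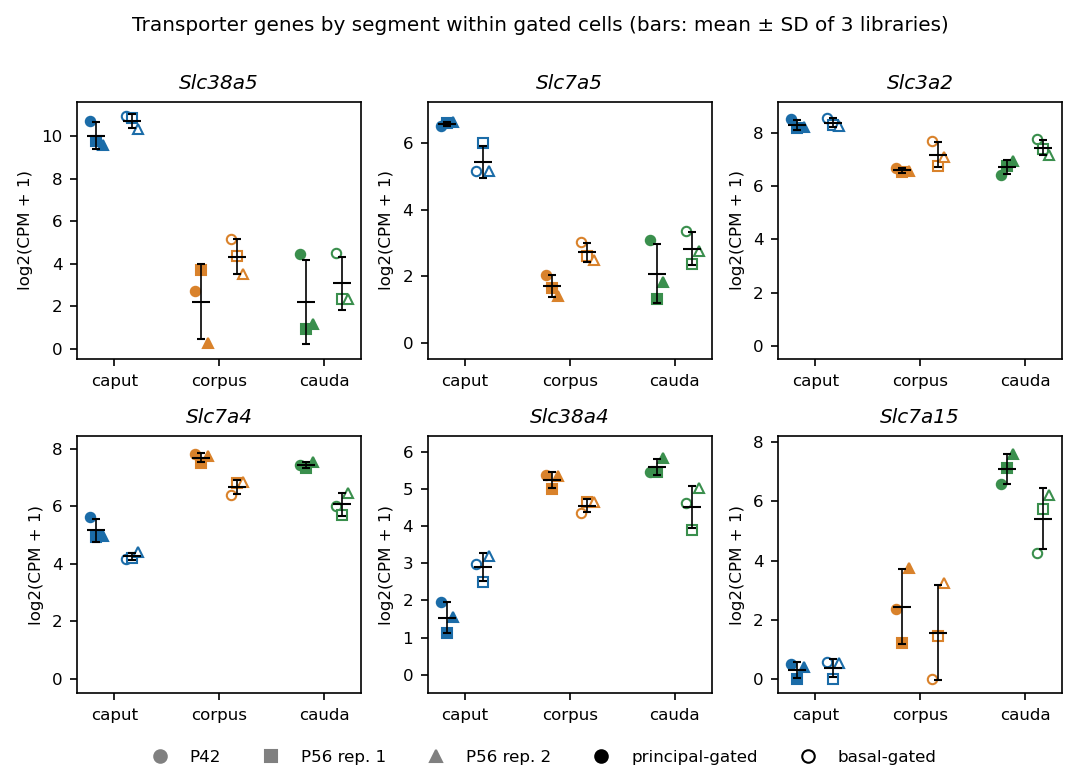
Level of 6 transporter genes, as log2(CPM + 1), by segment in principal-gated cells (filled symbols) and basal-gated cells (open symbols), with 1 symbol per library and bars for the mean ± SD of 3 libraries. Slc38a5, Slc7a5 and Slc3a2 are highest in the caput, and Slc7a4, Slc38a4 and Slc7a15 are lowest there, in both gates, with the difference for Slc3a2 not called in basal-gated cells.

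The gated types were then compared with each other, each against the mean of the other 8 types with the library as a block. Of the 64 genes, 26 had enough UMIs for this test. By mean over libraries, 7 of them were highest in basal cells, 5 in principal cells, 4 each in endothelial cells and fibroblasts and 2 in myoid cells, and the remaining 4 types had 1 each.

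Principal-gated cells had 10 called genes (12.4% of all genes), of which 4 were higher (2.77%) and 6 lower (9.64%). The higher genes were Slc7a12 (1.39 ± 0.23), Slc7a15 (1.29 ± 0.18), Slc1a1 (1.22 ± 0.15) and Slc7a4 (1.11 ± 0.13). Slc7a12 was not particular to this gate, with a mean of 12.3 CPM in principal and 12.2 CPM in sperm-gated cells. In the cauda it was at 32.8 CPM in principal and 35.2 CPM in sperm-gated cells, the latter from 22 UMIs. Slc1a1 ranged from 11.6 to 86.1 CPM over the 9 libraries with a median of 45.6 CPM, and Slc7a4 from 29.3 to 224 CPM with a median of 172 CPM. All 3 Slc43 members were among the lower genes. Without the P42 pool the 4 higher genes had log2 fold changes between 0.67 and 0.997, below the threshold of 1. Fewer transporters could then be tested, 21 in place of 26, and 3 of them were called (8.2% of all genes).

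Basal-gated cells had 6 called genes (12.3% of all genes), with Slc6a8 (1.94 ± 0.22), Slc7a6 (1.93 ± 0.22) and Slc7a8 (1.90 ± 0.19, adjusted p = 2.38e-13) higher (5.45%) and Slc1a1, Slc38a1 and Slc43a3 lower (6.84%). Slc7a6 and Slc7a8 are both light chains of Slc3a2. Slc7a8 ranged from 7.68 to 69.2 CPM in basal-gated cells with a median of 36.2 CPM, Slc7a6 from 4.27 to 22.4 CPM with a median of 12.3 CPM, and Slc6a8 from 0.929 to 34.7 CPM with a median of 11.5 CPM. The difference for Slc7a8 was 1.92 without the P42 pool.

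Clear/narrow cells, the proton-secreting cells of the epithelium, had 8 called genes (19.5% of all genes), 2 higher (6.23%) and 6 lower (13.2%). Slc43a2, a carrier of large neutral amino acids, was higher by 2.29 ± 0.21 (adjusted p = 1.21e-15) and was at 9.60 to 42.3 CPM with a median of 15.8 CPM. Slc38a1 was higher by 1.89 ± 0.24, at 6.8 to 32.3 CPM with a median of 14.2 CPM. The lower genes were Slc1a5, Slc36a4, Slc38a5 (-1.22 ± 0.25), Slc7a11, Slc7a12 and Slc7a15. Without the P42 pool both higher genes were still called, at 2.46 and 2.41, among 7 called genes (17.4% of all genes). Of these, 6 were shared, and the other was Slc43a3, higher by 1.06 (adjusted p = 0.000585).

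Fibroblast-gated cells had 6 called genes (8.36% of all genes), each of them higher (7.02%), and endothelial-gated cells had 4 (8.14%), with 3 higher (6.69%) and Slc38a1 lower (1.45%). Slc43a3 was the gene with the lowest adjusted p in both, at 3.24 ± 0.19 in fibroblasts (adjusted p = 4.18e-26) and 2.82 ± 0.23 in endothelial cells (adjusted p = 5.46e-18). Its level was 19.9 to 220 CPM in fibroblasts with a median of 65.7 CPM, 20.5 to 176 CPM in endothelial cells with a median of 65.9 CPM, and 1.24 to 53.0 CPM in principal cells with a median of 1.62 CPM, the highest of the last being the P42 cauda. Slc43a1, a carrier of branched-chain and other large neutral amino acids, was higher in fibroblasts by 3.27 ± 0.25 (adjusted p = 1.67e-19), and the taurine carrier Slc6a6 in endothelial cells by 1.19 ± 0.22, where it was at 33.7 to 319 CPM with a median of 89.0 CPM. Without the P42 pool, Slc43a3 remained called in fibroblasts (3.70) and endothelial cells (3.54) and was the only transporter called in either type, of 21 genes tested (4.99% and 5.7% of all genes). Slc43a1, Slc6a8 and Slc38a6 were not among these 21, so their calls were not tested without that pool.

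Macrophages/monocytes had 5 called genes (8.43% of all genes), with Slc43a2 (1.42 ± 0.25) and Slc38a6 (1.23 ± 0.21) higher (5.86%) and 3 lower (2.57%), and halo/T cells had 1 (3.22%), Slc38a1, which was higher (2.14 ± 0.36, 2.2%). Without the P42 pool 0 genes were called in either type by edgeR (5 and 4 at an unadjusted p under 0.05, 3.71% and 0.828% of all genes called). No transporter was called in myoid cells (3.23% of all genes) or in sperm (5.53%) by edgeR, where 3 genes in each had an unadjusted p under 0.05, and DESeq2 called 0 and 1.

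**Figure D3:**
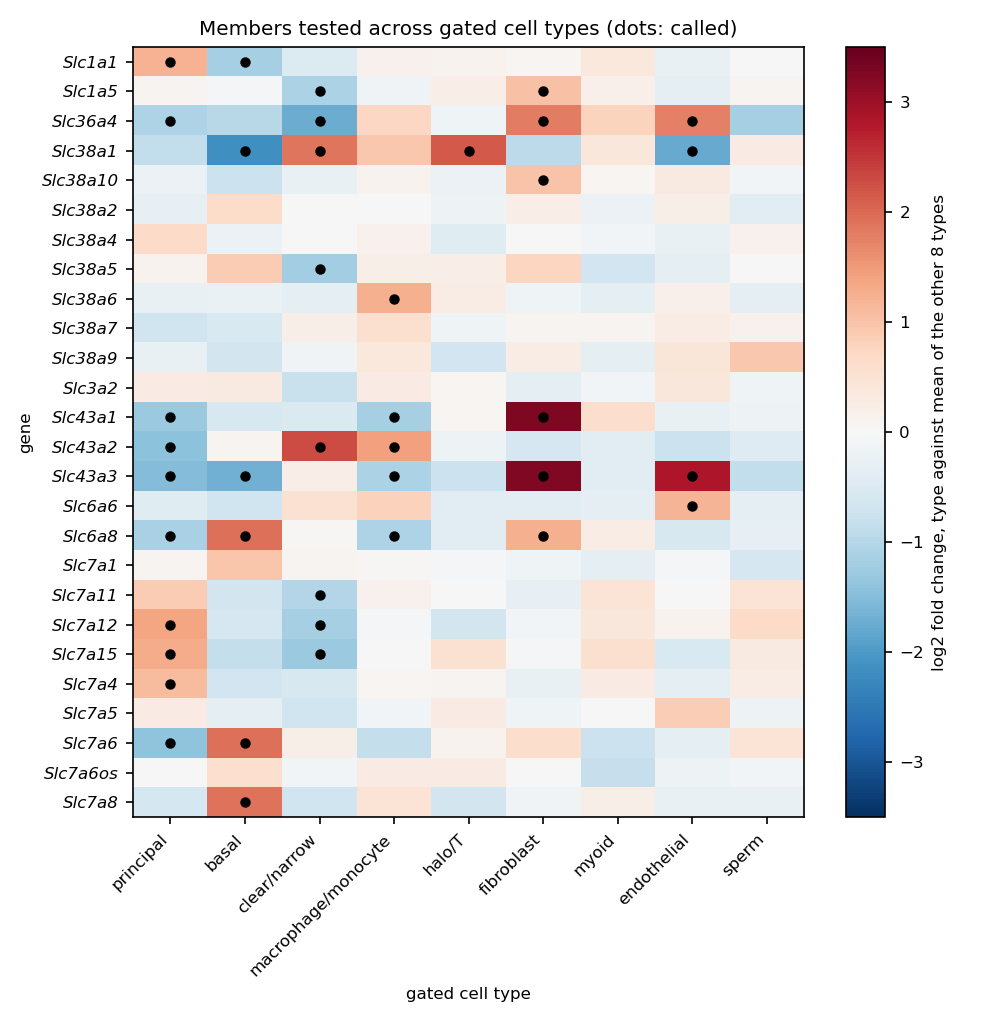
Log2 fold change of the 26 transporter genes tested (vertical axis) in each of 9 gated cell types against the mean of the other 8 (horizontal axis), as colour from blue (lower) to red (higher), with dots for called genes. Slc43a3 is red and called in fibroblasts (3.24) and endothelial cells (2.82) and blue and called in principal, basal and macrophage/monocyte-gated cells.

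The ages were compared within each segment as P56 minus P42, in a model where the single P42 library of a segment was assumed to vary like the P56 libraries. In the caput 2 of 51 transporters were called (3.26% of all genes), both lower at P56 (2.44%), in the corpus 11 (10.7%) and in the cauda 29 (32.4%). In the corpus 2 were higher (2.8%) and 9 lower (7.89%) at P56, and in the cauda 7 were higher (13.1%) and 22 lower (19.4%). The median log2 change of the 51 genes was -0.13, -0.38 and -1.26 in caput, corpus and cauda, against 0.01, 0.06 and -0.05 for all genes tested.

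The genes higher at P56 in the cauda were Slc7a15 (2.77 ± 0.77, adjusted p = 0.0202), Slc7a12 (2.62 ± 0.31, 0.000374), Slc1a1 (2.08 ± 0.44, 0.00604), Slc6a20a, Slc7a4 (1.85 ± 0.19, 0.00021), Slc38a4 (1.71 ± 0.25, 0.00101) and Slc7a11 (1.57 ± 0.29, 0.00306). Slc1a1 and Slc7a12 were also higher at P56 in the corpus (2.05 ± 0.46 and 1.56 ± 0.36, adjusted p = 0.0227 and 0.0253), and neither was called there without P56 replicate 2 (adjusted p = 0.0749 and 0.103). Slc7a15 was no longer called in the cauda without P56 replicate 2 (2.53, adjusted p = 0.0711) or by DESeq2 (2.83, adjusted p = 0.0538). For Slc7a15, the P42 cauda library was at 32.5 CPM and the P56 libraries at 108 and 153 CPM, and for Slc7a12 it was at 8.30 CPM against 24.6 and 35.5 CPM. Slc38a4 was there at 21.4 against 35.3 and 46.7 CPM, and Slc7a11 at 5.18 against 7.64 and 10.4 CPM. For these genes the log2 changes, fitted after TMM scaling, were larger than the CPM values give.

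The genes lower at P56 included the Slc43 family, with Slc43a3 called in all 3 segments (-1.47 ± 0.26, -1.90 ± 0.27 and -3.48 ± 0.26, adjusted p = 0.0294, 0.00502 and 6.56e-05), Slc43a2 in all 3 (-1.0 ± 0.22, -1.24 ± 0.22 and -1.65 ± 0.21) and Slc43a1 in corpus and cauda (-2.29 ± 0.30 and -3.65 ± 0.28). Slc43a3 and Slc43a2 were the only transporters called in the caput, and neither passed there with all barcodes (-1.12 and -0.74, adjusted p = 0.0796 and 0.122). Slc43a2 in the caput was also lost by DESeq2 (adjusted p = 0.112) and without either P56 replicate (0.0831 and 0.0606), as it was without either in the corpus (0.051 and 0.0644). Slc43a3 was at 29.2 CPM in the P42 caput against 7.22 and 9.14 CPM at P56, at 40.1 against 8.06 and 5.72 CPM in the corpus, and at 108 against 6.94 and 4.42 CPM in the cauda. Slc1a5 was lower at P56 in the cauda (-2.65 ± 0.30, adjusted p = 0.000294), as was Slc38a5 (-2.90 ± 0.72), from 25.5 to 2.18 and 1.84 CPM. The call of Slc38a5 was lost without either P56 cauda replicate (adjusted p = 0.0585 and 0.0795). In the caput, where Slc38a5 was high, it was not called, at 1438 CPM against 1185 and 844 CPM.

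Markers of other cells and of handling moved with age too. The summed level of the 6 fibroblast markers, none of them at 0 in any library, was 2167 CPM in the P42 caput against 401 and 516 CPM at P56, 7685 against 699 and 582 CPM in the corpus and 42243 against 1493 and 959 CPM in the cauda. Slc43a1 and Slc43a3 were higher in fibroblast-gated cells, as given above. The 13 macrophage/monocyte markers summed to 748 CPM in the P42 caput against 303 and 567 CPM at P56, 1724 against 308 and 251 CPM in the corpus and 4712 against 169 and 263 CPM in the cauda. Slc38a6 and Slc43a2 were called higher in the cells of that gate, though Slc43a2 was not without the P42 pool (0.73, adjusted p = 0.295) and had its highest mean level in clear/narrow-gated cells (19.1 against 11.2 CPM). Endothelial-gated cells also had higher Slc43a3. The 11 endothelial markers summed to 469 against 58.2 and 104 CPM in the caput, 149 against 62.7 and 39.4 CPM in the corpus and 97.9 against 39.2 and 16.5 CPM in the cauda. The 10 halo/T markers summed to 43.6 against 26.5 and 54.1 CPM in the caput, 221 against 37.8 and 32.9 CPM in the corpus and 220.4 against 10.1 and 20.4 CPM in the cauda. No marker of these lists was at 0 in a library except 1 halo/T marker in the P56 replicate 1 cauda. The 27 principal-cell markers went the other way, at 96516 CPM in the P42 caput against 181316 and 158065 CPM at P56, 21154 against 45336 and 36613 CPM in the corpus and 7262 against 30873 and 35444 CPM in the cauda, with 1 of them at 0 in each P56 cauda library. Slc7a15, Slc7a12, Slc1a1 and Slc7a4, higher at P56 in the cauda, were the genes called higher in principal-gated cells. In the cauda the 8 basal markers summed to 120.1 CPM at P42 against 286 and 255 CPM, the 7 clear/narrow markers to 367 against 746 and 774 CPM, the 6 myoid markers to 402 against 158 and 104 CPM and the 11 sperm markers to 368 against 16.2 and 40.4 CPM. These lists did not move alike elsewhere. Basal markers were at 367 against 139 and 250 CPM in the caput and 241 against 103 and 117 CPM in the corpus. Clear/narrow markers were at 1100 against 772 and 1159 CPM and at 1124 against 898 and 977 CPM. Myoid markers were at 1603 against 1790 and 1631 CPM and at 137 against 56.7 and 40.5 CPM. Sperm markers were at 147 against 227 and 1131 CPM and at 927 against 401 and 373 CPM. The 9 genes of a list induced by tissue dissociation summed to 8724 CPM in the P42 caput against 1714 and 1892 CPM, 7474 against 4332 and 3925 CPM in the corpus and 15621 against 4574 and 3976 CPM in the cauda. The part of cell composition and of handling in these age differences was not tested in whole tissue.

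In principal-gated cells alone, a comparison chosen after seeing the data, the transporters called between the ages were 0 in the caput (5 at an unadjusted p under 0.05), 2 in the corpus and 17 in the cauda, of which 2 and 15 were shared with whole tissue, against 0.815%, 3.41% and 22.5% of all genes. In the cauda the log2 change from P42 to P56 was -4.51 for Slc43a3, -4.97 for Slc43a1, -2.82 for Slc1a5 and 1.44 for Slc7a12. The values for Slc7a4 (0.79), Slc38a4 (0.99) and Slc1a1 (0.997) were below the fold threshold, Slc7a15 (1.60, adjusted p = 0.0935) and Slc7a11 (0.35, adjusted p = 0.336) missed the test, as did Slc7a12 in the corpus (0.92, adjusted p = 0.122). In the cauda, Slc3a2 (1.21, adjusted p = 0.000646) and Slc7a5 (-1.08) were called in this gate but not in whole tissue. The fibroblast markers were at 18153 CPM in principal-gated cells of the P42 cauda and at 319 and 277 CPM in those of the P56 cauda, so the gate did not remove them. The gate's limit on its own marker list was 7262 CPM in the P42 cauda and 30873 and 35444 CPM in the P56 cauda.

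**Figure D4:**
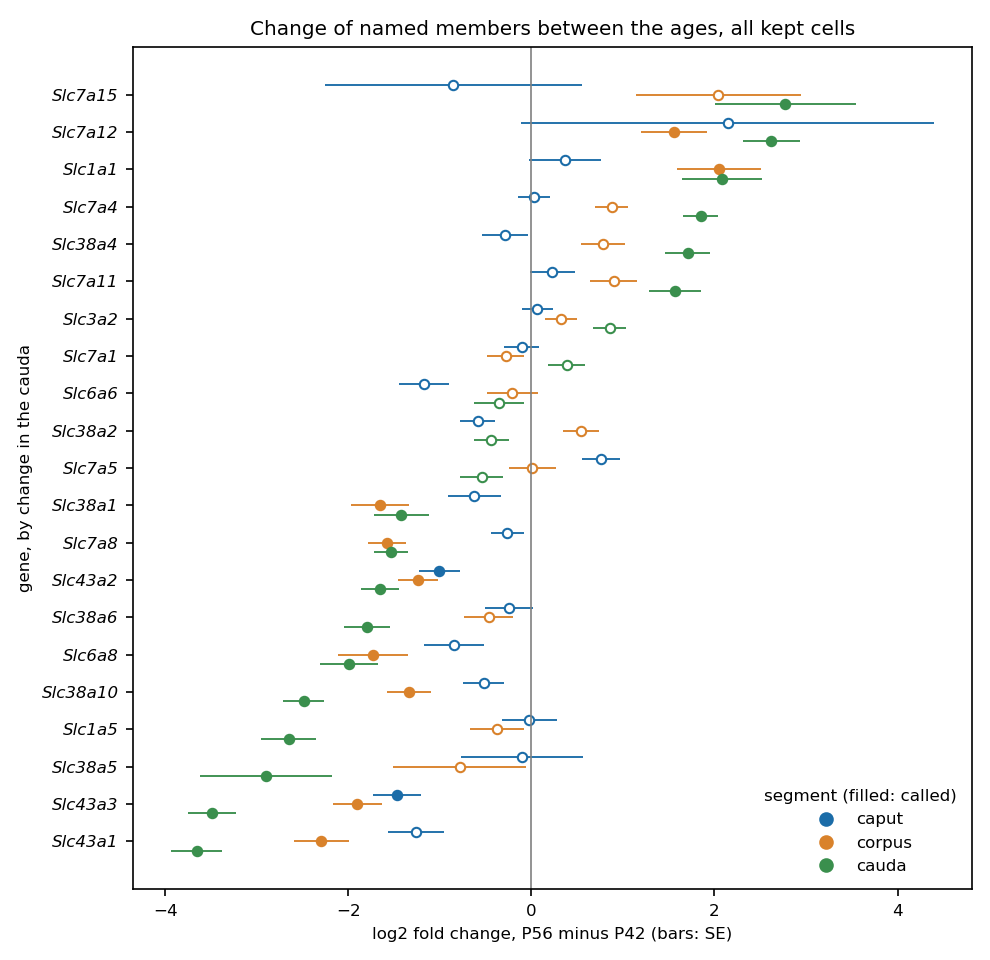
Log2 fold change from P42 to P56 (horizontal axis, bars show the SE) of the 21 named transporter genes (vertical axis, ordered by the change in the cauda) in caput, corpus and cauda, with filled symbols for called genes. The cauda symbols spread from -3.65 (Slc43a1) to 2.77 (Slc7a15).

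Other genes of amino acid handling were counted in the same test of the segments, where 24.8% of all genes were called. Of 12 further amino acid carriers tested, 5 were called, and the highest segment was the corpus for 2, the cauda for 1 and the caput for 2. Those with a caput peak were the aromatic amino acid carrier Slc16a10 and the peptide carrier Slc15a2. From caput to cauda, Slc16a10 was at 53.9 ± 5.59, 9.14 and 12.5 CPM and Slc15a2 at 26.7, 5.40 and 7.44 CPM. Of 13 genes of the gamma-glutamyl cycle, which makes and breaks down glutathione, 5 were called and all 5 were highest in the caput, namely Ggct, Ggt7, Ggt1, Chac1 and Ggt6. Ggct was at 81.2, 22.0 and 50.4 CPM and Ggt7 at 29.1, 1.04 and 1.29 CPM from caput to cauda.

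Of 13 genes of glutamine, glutamate and serine metabolism, 9 were called, of which 6 had their peak in the corpus, 2 in the caput and 1 in the cauda. Glul, which makes glutamine from glutamate, was at 631 ± 110 CPM in the caput, 182 ± 63.4 CPM in the corpus and 184 ± 58.1 CPM in the cauda, and Psph, the last enzyme of serine synthesis, at 41.2, 397 and 240 CPM. Of 11 genes of arginine and polyamine metabolism 6 were called, 3 each highest in corpus and cauda, among them Sat1, which acetylates polyamines (364, 864 and 672 CPM). Of 9 genes of taurine, creatine and betaine metabolism 3 were called, Gamt, Ckb and Fmo1, while Cdo1, which makes the precursor of taurine from cysteine, was at 752, 331 and 216 CPM and did not pass (adjusted p = 0.064). Of 16 genes of amino acid sensing at the lysosome 2 were called, Lamtor4 and Rragb, and of 8 genes of the amino acid response 0 were called by edgeR (3 at an unadjusted p under 0.05, 1 by DESeq2). The dissociation list had 5 of 9 genes called, all highest in the cauda.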

How the data were processed

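Raw UMI counts per gene and barcode, not normalized, were deposited by the authors. Their reads passed through fastp, umi_tools (barcodes), STAR on GRCm38 (2.7.3a in the submitters' processing notes), featureCounts (exons) and again umi_tools (UMIs). The strand setting of the counting is not given in the sources used here, so UMIs of genes that overlap on opposite strands cannot be told apart. Barcodes with 300 to 4000 genes, at most 20000 UMIs and under 50% mitochondrial UMIs were kept, 1361 erythroid cells (at least 5% globin UMIs) were left out, and globin UMIs were left out of the totals.

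Cells were gated by marker lists. A gate required at least 3 UMIs of at least 2 markers and a share at least 3 times that over the kept cells of the same library, with 1 gate passed. Principal cells required at least 1 times that library's share of their own list. They also required no other list at 2 times or more with at least 2 markers detected. The limits thus moved with the library, and those on fibroblast markers were highest in the P42 cauda. The lower limit on the principal list was 96516 to 181316 CPM in the caput libraries. It was 21154 to 45336 CPM in the corpus and 7262 to 35444 CPM in the cauda. The 2310 cells passing several gates and 11963 passing none were left out of the gates, and no doublet caller was used. In 8 of the 9 gates compared, at least 5 of the gate's markers and all or all but 1 of them were highest in that gate. The principal gate had 8 of 27. A library entered a gate with at least 10 cells. Ciliated-gated cells reached this in 3 libraries and were not tested.

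UMIs were summed per library, or per library and gate, and tested by edgeR 4.0.16 in R 4.3.3 (quasi-likelihood, TMM, filterByExpr). Cells were not treated as replicates. Segments had the pool as a block, since a pool's segments come from the same mice. Deviations from the segment means correlated at 0.149 to 0.732 in the 9 same-pool pairs (median 0.45) and at -0.665 to 0.523 in the 18 other pairs (median -0.294). The age model had no block and 3 residual degrees of freedom, and a fit of the difference of the age changes with the pool as a term was added after seeing the data. When 200 genes were changed by a log2 of 2 in simulated data, the test recovered 200 between segments in whole tissue, with 9 false calls. Between ages in the caput it recovered 176 (88%), with 7 false calls. The simulated counts had a single fixed dispersion and no pool effect, and genes of low count were not among those changed. These shares therefore do not give the recovery for the transporters. Between segments, p-values measure the spread of libraries left after the pool block. Between gates they measure the spread of the sums per library and gate left after the library block. These sums, from 9 libraries of 3 pools, were taken as independent units, so these p-values do not measure the spread between pools. Between ages they measure the spread between the 2 P56 libraries of a segment, pooled over the 3 segments, with none at P42. These pairs come from the same 2 pools of mice and were taken as independent. Alternatives were DESeq2 1.42.0, no filter, no block, mitochondrial genes left out, all barcodes, a stricter gate (6 times) and each replicate left out.

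Genes described by value have a mean of at least 20 CPM in a segment or 50 CPM in a gate (13 genes), or are the 8 with most UMIs among the other called genes. Slc36a4, Slc7a6, Slc6a20a and the low genes listed beside a count were named after their values were seen. The members and lists were chosen with earlier results of these data known. Positions are from GENCODE (GRCm38) and promoters from RefSeq (GRCm38.p6), with 67 promoters of 46 of the 64 genes. Python 3.11.15 with pandas 2.3.3 and numpy 2.4.6 was used for the sums, and matplotlib 3.10.9 for the figures.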

Additional observations from a re-analysis of the deposited data

Results flagged for a closer look

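The change between the ages differed between the segments for 9 of the 51 transporters tested (13.9% of all genes), by edgeR's quasi-likelihood test of the difference itself. The range of the log2 change over the 3 segments was 2.83 for Slc36a4 (adjusted p = 0.0125), 2.63 for Slc1a5 (0.0131), 2.40 for Slc43a1 (0.0212), 2.01 for Slc43a3 (0.0227), 1.99 for Slc38a4 (0.0208), 1.97 for Slc38a10 (0.018), 1.82 for Slc7a4 (0.00996), 1.56 for Slc38a6 (0.0438) and 1.31 for Slc7a8 (0.0243). With pool added to the model as a term, a fit chosen after seeing the data, 16 of the 51 transporters were called (21.3% of all genes), among them these 9, with adjusted p from 0.000755 (Slc1a5) to 0.0212 (Slc38a6). Slc1a5 was at 126, 83.2 and 109 CPM in the caput libraries of P42, P56 replicate 1 and P56 replicate 2 and at 109, 12.0 and 8.46 CPM in those of the cauda. Slc7a4 was at 37.7, 28.9 and 30.4 CPM in the caput and at 65.2, 125 and 152 CPM in the cauda. For both genes the larger change was in the cauda, whose P42 library had the summed fibroblast markers at 42243 CPM, against 1493 and 959 CPM at P56, and their part in these differences was not tested. In principal-gated cells alone, a comparison chosen after seeing the data, 9 of 38 transporters were called for this difference (9.63% of all genes), of which 7 were among these 9.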

How the results depend on the processing

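No called value of a single transporter changed sign under any alternative run. Over all alternatives, 3116 values of 410 results gave 2822 on the same side of the threshold, 210 that no longer passed, 84 that newly passed, and 141 sign changes in values that were not called. The stricter gate left the principal gate at the same 14028 cells, so its values between segments there were the same by construction. The counts of called transporters moved by over 1.5 times in 59 of 178 cases, and the cause was not tested except where fewer pools, cells or a shorter gene list entered by construction.

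Leaving out a replicate gave these ranges. In whole tissue the 22 genes called between segments became 4 to 28, and for age the 2, 11 and 29 in caput, corpus and cauda became 1 to 2, 5 to 9 and 21 to 22. Between segments within gates, the ranges were 15 to 24 in principal (23 with all pools), 7 to 11 in basal (11), 6 to 12 in clear/narrow (12), 3 to 11 in macrophage/monocyte (8), 3 to 9 in halo/T (8), 3 to 14 in fibroblast (10), 1 to 6 in myoid (6), 1 to 8 in endothelial (6) and 4 to 10 in sperm-gated cells (8). Between gates they were 3 to 10 for principal (10), 5 to 8 for basal (6), 5 to 7 for clear/narrow (8), 0 to 6 for macrophage/monocyte (5), 0 to 1 for halo/T (1), 1 to 7 for fibroblast (6), 0 to 1 for myoid (0) and 1 to 5 for endothelial cells (4).

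With the replicate block, a fit added after seeing the data, 16 transporters were called for the difference of the age changes, against 9. Without the replicate block, the segment counts were 4 in macrophage/monocyte, 5 in halo/T, 5 in fibroblast and 1 in endothelial-gated cells, and in whole tissue Slc7a8, Slc38a1 and Slc6a8 were no longer called among the genes described by value. Without the library block, the counts between gates were 4 for principal, 4 for clear/narrow, 2 for macrophage/monocyte, 2 for endothelial cells and 1 for sperm. The stricter gate gave 5 in basal, 4 in clear/narrow, 5 in macrophage/monocyte, 5 in halo/T and 2 in myoid cells between segments, and 10 for basal, 3 for macrophage/monocyte, 3 for fibroblast and 1 for sperm between gates. With no filter on low counts, the counts were 4 for age in the caput, 16 for the difference of the age changes, 14 for clear/narrow, 3 for halo/T, 2 for myoid and 5 for sperm between gates, and 14 between segments in macrophage/monocyte-gated cells. All barcodes gave 0 for age in the caput, DESeq2 gave 1 for sperm, and principal-gated cells alone, added after seeing the data, gave 0, 2 and 17 for age in caput, corpus and cauda.

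With 1 P42 pool the age comparison has no replicate at P42, and the 18 transporters with at most 56 UMIs had too few for the segment test with its filter on low counts.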

Other observations

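Ciliated-gated cells, which passed a gate on 6 ciliary markers, numbered 142 in the 3 caput libraries that had at least 10 of them. Slc7a9, the light chain of the heavy chain Slc3a1, was chosen after its values were seen, at 65.4, 7.14 and 23.1 CPM in these cells at P42, P56 replicate 1 and P56 replicate 2, from 43 UMIs. The caput mean of Slc7a9 was 0.702 to 5.05 CPM in the other 9 gates. No test was made, since the gate had few cells and libraries.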
